A study of Arabidopsis thaliana with 4 samples.

Results

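Pectin methylesterase (PME) genes and genes of PME inhibitors (PMEI) were followed in Arabidopsis seedlings that overexpress RECA1. The members were 58 loci taken by locus identifier, 56 of PMEs and 2 of inhibitors (AT5G62340 and AT3G62820). The platform annotation paired 1 probe set of its own with each of 40 of these loci, out of 13286 genes with such a probe set. RefSeq gave a symbol or synonym with PME in it to 16 of the 58. Most of the others are named here by locus. RECA1 (AT1G79050) encodes a RecA-type recombinase of the chloroplast, related to the bacterial enzyme of DNA repair. RNA came from RECA1-OE seedlings, T3 transgenic plants that overexpress RECA1 in the Col-0 ecotype, and from wild-type Col-0 seedlings. All plants were 2 weeks old and untreated. They had 4 days of stratification and grew on plates kept at 23 °C under days of 16 h light and 8 h dark. Each group had 2 arrays, which the labels call biological replicates without saying whether the plants were grown separately. The labels give neither the promoter of the transgene nor the number of transgenic lines.

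PMEs are enzymes of the cell wall that remove methyl esters from homogalacturonan, the main chain of pectin. The carboxyl groups left behind can bind calcium and stiffen the wall, or open the chain to polygalacturonases and pectate lyases, which cut it. Inhibitor proteins bind PMEs and block them, and many PMEs are made with an inhibitor-like leading part that subtilases, a class of proteases, cut off. In seedlings PMEs are known for their part in cell growth, organ initiation and stress responses, and a separate set of them works in pollen.

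The values are log2 MAS5 signals of Affymetrix probe sets, 1 per array, and levels of different probe sets cannot be set against each other. Median log2 signals of the 4 arrays lay between 7.58 and 7.63. Across tested probe sets, which are not independent, Pearson's r was 0.980 between the RECA1-OE arrays and 0.966 between the Col-0 arrays. It was 0.882 and 0.884 for Col-0 replicate 2 against the RECA1-OE arrays, and 0.918 and 0.924 for Col-0 replicate 1. No probe set was paired with RECA1 alone, so the labels were not checked against the transgene. The leaf marker RCA had log2 signals of 14.56 and 14.22 in RECA1-OE and 14.45 and 14.48 in Col-0, and the root marker PYK10 had 13.15 and 13.65 in RECA1-OE and 14.13 and 13.53 in Col-0. The 5 paired pollen markers of 9 listed were all dim, with values from 1.53 to 5.33 in RECA1-OE and from 1.17 to 5.09 in Col-0. In RNA of whole seedlings, fewer cells of a type and less RNA per cell cannot be told apart.

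Of the 40 loci with a probe set, 16 were bright enough to be tested and 24 were dim, meaning a mean log2 signal below 6.82 over the 4 arrays. In RECA1-OE 1 member rose, 4 fell and 11 did not pass limma's test at an adjusted p under 0.05. The rise was AT4G02330 (ATPMEPCRB, also PME41), and the falls were the inhibitor gene AT5G62340 and the PME genes AT5G04960, AT5G19730 and AT5G09760. The 5 calls are 31.3% of the 16, where 19.9% of all tested probe sets were called. By direction, 25.0% of the 16 were lower and 6.25% higher, where 9.97% and 9.94% of all tested probe sets were. With 16 members the shares rest on few genes, and 1 of the 4 falls, AT5G62340, was tested only through its Col-0 signal. Leaving out an array moved the count of members called to 2 of 16 when RECA1-OE replicate 1 was left out, beside 5.47% of all tested probe sets, and to 2 when RECA1-OE replicate 2 was, beside 8.18%. It was 8 when Col-0 replicate 1 was left out, beside 28.6%, and 4 when Col-0 replicate 2 was, beside 19.2%. As many had a lower mean in RECA1-OE (8) as a higher one (8), and their median log2 change was -0.01, against -0.04 over all tested probe sets, of which 53.1% had a lower mean. The groups did not overlap in 12 of the 16, with RECA1-OE on top in 6 and below in 6. Over all tested probe sets the groups did not overlap in 65.0%, with RECA1-OE on top in 29.9% and below in 35.1%. After quantile normalization 10 of the 16 had a lower mean, and the calls were again 1 higher and 4 lower.

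**Figure D1:**
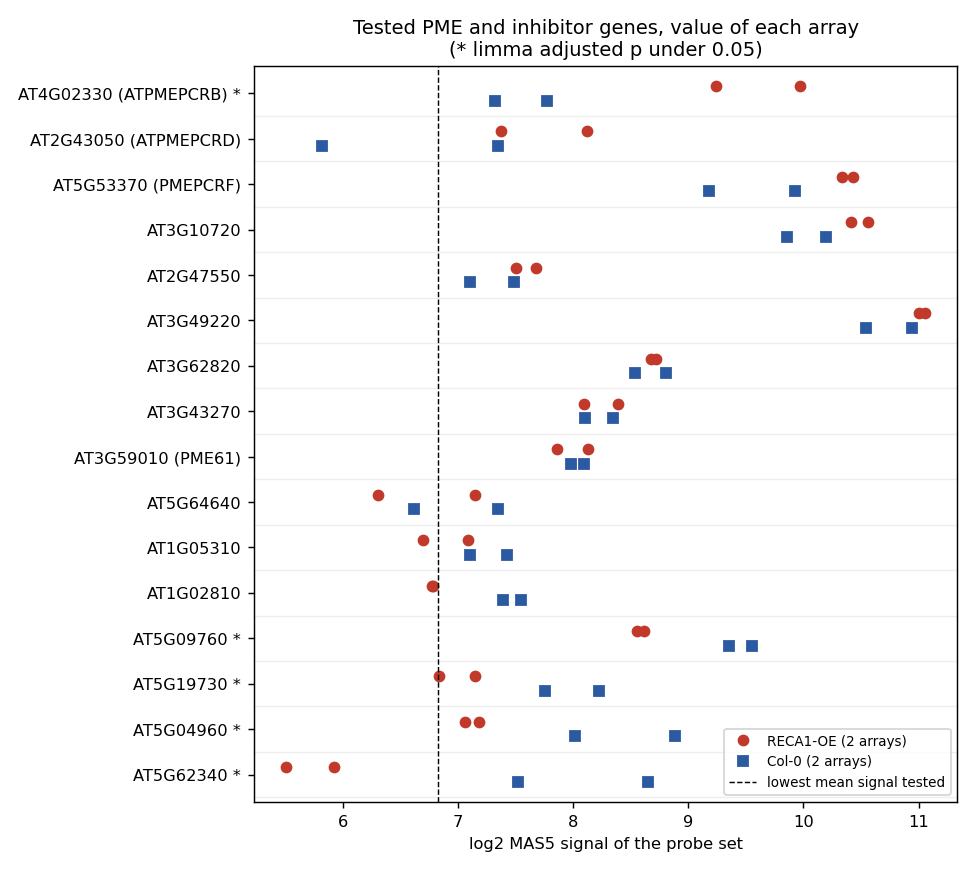
Log2 MAS5 signal of each array for the 16 tested members, with RECA1-OE as circles above Col-0 as squares, ordered by the difference between the groups. The 5 genes marked with an asterisk passed limma's test, and in the 4 genes at the bottom of the plot both circles lie left of both squares.

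AT4G02330 encodes PME41, a PME known from studies of chilling tolerance and brassinosteroid response. Its log2 signal was 9.24 and 9.97 on the RECA1-OE arrays, against 7.77 and 7.32 on the Col-0 arrays. Both RECA1-OE values stood above both Col-0 values by more than either group's own spread. The means were 9.60 ± 0.52 in RECA1-OE and 7.55 ± 0.32 in Col-0 (SD, n = 2 each), a rise of 2.06 ± 0.27 log2 units (SE), or 4.16-fold (limma adjusted p 0.00366). The call was kept without each array in turn, with log2 changes between 1.69 and 2.42. Next to it in gene order (RefSeq TAIR10.1) stands AT4G02320, another PME gene, whose probe set was dim, with log2 signals of 1.74 and 1.62 in RECA1-OE and 0.92 and 2.12 in Col-0. The gene on its other side, AT4G02340, had log2 signals of 9.98 and 9.89 in RECA1-OE and 9.68 and 9.89 in Col-0, and it did not pass (limma adjusted p 0.517).

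The inhibitor gene AT5G62340 fell in RECA1-OE. Its log2 signal was 5.92 and 5.51 in RECA1-OE, against 7.52 and 8.65 in Col-0. The groups were apart, although the Col-0 arrays differed from each other by 1.13. The means were 5.71 ± 0.30 in RECA1-OE and 8.08 ± 0.80 in Col-0 (SD, n = 2 each), and the gene fell by 2.37 ± 0.38 log2 units (SE) at a limma adjusted p of 0.00729. Its mean over the 4 arrays was 6.90, just above the threshold, and it was bright enough to be tested only through Col-0. A gene tested on that basis had to be lower in RECA1-OE, so its direction is a description. Since its RECA1-OE values lie below the threshold, the size of the fall is uncertain too. It fell by 2.07 on the log2 scale when 16 was added to each signal before the logarithm. AT5G62340 also kept its call without each array in turn, with log2 changes from -2.93 to -1.80. The other inhibitor member, AT3G62820, had log2 signals of 8.68 and 8.72 in RECA1-OE and 8.81 and 8.54 in Col-0. Its groups overlapped, and the difference was 0.03 ± 0.17 log2 units (SE) at a limma adjusted p of 0.921.

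Directly after AT5G62340 in gene order come AT5G62350 and AT5G62360, also of the inhibitor family. AT5G62350 had log2 signals of 13.17 and 12.99 in RECA1-OE, against 13.36 and 13.53 in Col-0. AT5G62360 had 9.51 and 8.90 in RECA1-OE, against 9.56 and 10.57 in Col-0. In both genes the RECA1-OE values were lower than either Col-0 value, as in 35.1% of all tested probe sets. For AT5G62360 the groups nearly met, at 9.51 and 9.56. Neither passed, with log2 changes of -0.37 ± 0.14 and -0.86 ± 0.34 (SE) and limma adjusted p values of 0.112 and 0.116.

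Among the PME genes that fell, AT5G04960 had log2 signals of 7.18 and 7.06 in RECA1-OE, against 8.89 and 8.02 in Col-0. The RECA1-OE arrays lay close together and below both Col-0 arrays, of which replicate 1 was the higher. AT5G04960 fell by 1.33 ± 0.29 log2 units (SE) at a limma adjusted p of 0.0196. The fall was 0.90 with Col-0 replicate 1 left out and 1.77 with Col-0 replicate 2 left out (log2 changes of -0.90 and -1.77). The root-hair expansin gene EXPA18, a marker of root hair cells, also had lower values in RECA1-OE, 6.90 and 7.14 against 8.03 and 7.33 in Col-0. EXPA18 did not pass (limma adjusted p 0.136), and the other paired root-hair marker, EXPA7, was dim. The part of root hairs in the fall of AT5G04960 was not tested. Its neighbour AT5G04970, also a PME gene, was dim on every array.

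AT5G19730, a further PME gene, had log2 signals of 6.84 and 7.15 in RECA1-OE, against 7.76 and 8.22 in Col-0. Its groups did not overlap, and the fall was 1.00 ± 0.24 log2 units (SE) at a limma adjusted p of 0.0272. AT5G09760 had 8.56 and 8.62 in RECA1-OE, against 9.36 and 9.55 in Col-0. Both groups were tight and apart, and the fall was 0.87 ± 0.16 log2 units (SE), or 1.82-fold (limma adjusted p 0.0112). Both of these PME genes and AT5G04960 lost the call on removal of either RECA1-OE array, with limma adjusted p values between 0.0558 and 0.138. AT5G19730 also lost it without Col-0 replicate 2, with a limma adjusted p of 0.0684, and both it and AT5G04960 lost it when dim probe sets were kept (0.0718 and 0.0579). AT5G09770, which follows AT5G09760, had log2 signals of 8.90 and 8.89 in RECA1-OE and 9.27 and 9.58 in Col-0, and it did not pass (limma adjusted p 0.0666).

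**Figure D2:**
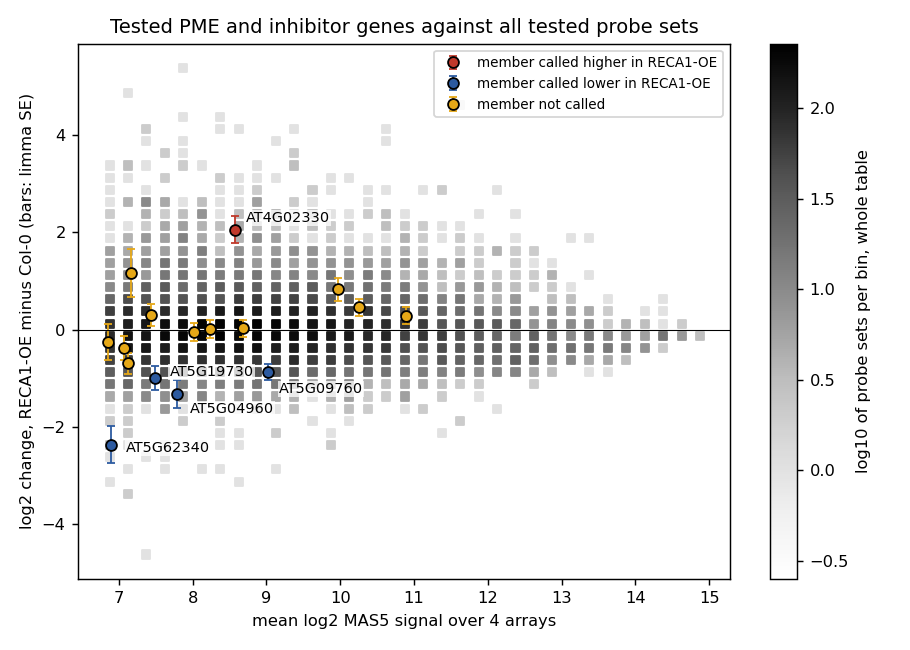
Log2 change, RECA1-OE minus Col-0, against mean log2 MAS5 signal for the 16 tested members (points, bars are limma SE) over all 13647 tested probe sets (grey squares, darker where a bin holds more). AT4G02330 sits at 2.06 and AT5G62340 at -2.37, while the 11 members that were not called lie between -0.69 and 1.17.

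Of the members that did not pass, 3 had the next changes in size. AT2G43050 (ATPMEPCRD) had log2 signals of 7.38 and 8.12 in RECA1-OE, against 7.35 and 5.82 in Col-0. One Col-0 array nearly reached the lower RECA1-OE array, and the difference of 1.17 ± 0.49 on the log2 scale (SE) had a limma adjusted p of 0.134. It was 1.93 when Col-0 replicate 1 was left out, and 0.40 when Col-0 replicate 2 was. The Col-0 mean of AT2G43050, 6.58, lay below the signal threshold, so this gene was tested only through RECA1-OE. Its direction is a description. AT5G53370 (PMEPCRF) had 10.33 and 10.43 in RECA1-OE, against 9.93 and 9.18 in Col-0. Its groups did not overlap, and the difference of 0.83 ± 0.24 (SE) fell just short, with a limma adjusted p of 0.0506. It was 1.20 and passed when Col-0 replicate 1 was left out, and was 0.46 when Col-0 replicate 2 was. AT1G02810 had 6.78 and 6.77 in RECA1-OE, against 7.55 and 7.39 in Col-0, a difference of -0.69 ± 0.21 log2 units (SE) at a limma adjusted p of 0.0580. It was called lower in the fit without a mean-variance trend (limma adjusted p 0.0300). Its RECA1-OE mean of 6.78 lay below the signal threshold, so AT1G02810 was tested only through Col-0. Its direction is therefore a description too.

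Of the 5 members with the brightest probe sets, 3 had RECA1-OE values above either Col-0 value without passing. RECA1-OE was on top in 29.9% of all tested probe sets, and a share of 5 genes rests on few. AT3G49220 had log2 signals of 11.00 and 11.06 in RECA1-OE and 10.94 and 10.55 in Col-0, and AT3G10720 had 10.41 and 10.56 in RECA1-OE and 10.20 and 9.86 in Col-0. Their log2 changes were 0.29 ± 0.17 and 0.46 ± 0.17 (SE), and the limma adjusted p values were 0.272 and 0.10. The third was PMEPCRF. In each of the 3 genes Col-0 replicate 2 was the lowest array and Col-0 replicate 1 lay nearer to RECA1-OE. The other two of the 5 were AT5G09760, which fell, and the inhibitor gene AT3G62820, whose groups overlapped.

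AT3G43270 and AT3G59010 (PME61, also named PME35) showed groups that overlapped. AT3G43270 had log2 signals of 8.39 and 8.10 in RECA1-OE and 8.11 and 8.35 in Col-0. AT3G59010, known for a part in the strength of the stem, had 8.13 and 7.86 in RECA1-OE and 7.98 and 8.09 in Col-0. Their log2 changes were 0.02 ± 0.19 and -0.04 ± 0.19 (SE). AT5G64640, the member just above the signal threshold with a mean of 6.85, differed by -0.26 ± 0.37 on the log2 scale (SE) with overlapping groups. It was tested only through Col-0, with a RECA1-OE mean of 6.73. AT2G47550 and AT1G05310 had groups that did not overlap and log2 changes of 0.30 ± 0.22 and -0.37 ± 0.25 (SE), neither of which passed (limma adjusted p 0.378 and 0.322).

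**Figure D3:**
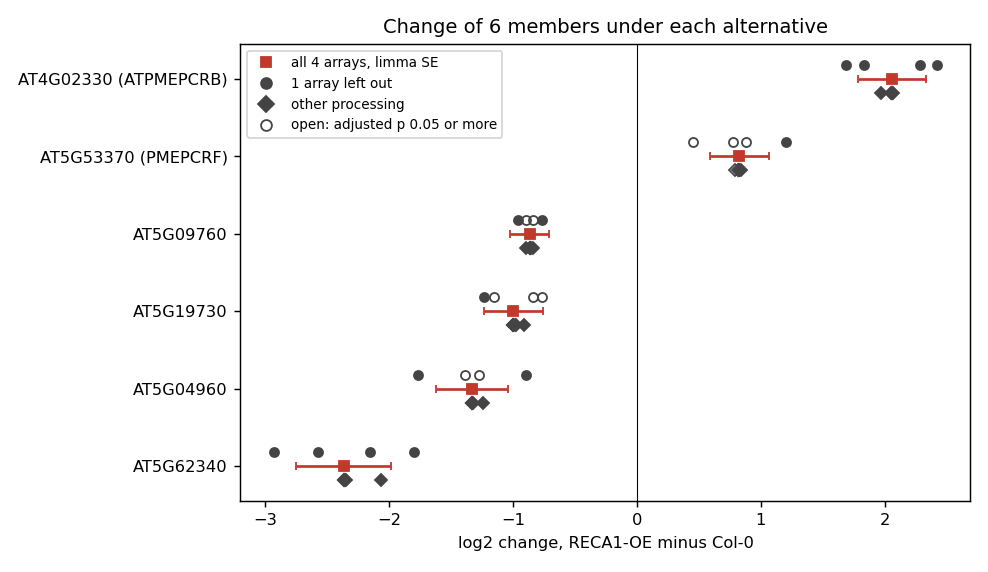
Log2 change, RECA1-OE minus Col-0, of the 5 called members and PMEPCRF with all 4 arrays (red squares, bars are limma SE), with 1 array left out (circles) and under other processing (diamonds), where open symbols mark a limma adjusted p of 0.05 or more. AT4G02330 stays between 1.69 and 2.42 and AT5G62340 between -2.93 and -1.80, with every symbol filled for both genes. AT5G62340 was tested only through its Col-0 signal, so its direction is a description.

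The 24 dim members were all PME genes, with mean log2 signals from 0 to 6.27. Of these, 10 had a mean below 3. The members nearest below the threshold were AT3G47400 with a mean of 6.27 and AT3G05620 with 6.25. Replicate arrays of dim members differed by a median of 1.02 in RECA1-OE and 0.81 in Col-0 on the log2 scale, against 0.22 and 0.39 for the 16 tested members. AT2G36710 had log2 signals of 5.55 and 1.80 on the RECA1-OE arrays, for example, against 5.17 and 5.66 in Col-0. At that spread only large differences could be seen.

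The groups of dim members did not overlap in 8 of 24, where 42.4% of all dim probe sets had groups that did not overlap. RECA1-OE lay above in AT3G05610 and AT3G24130. AT3G05610 had log2 signals of 4.74 and 4.34 in RECA1-OE, against 1.5 and 2.11 in Col-0. AT3G24130 had 3.96 and 3.83 in RECA1-OE, against 2.76 and 2.41 in Col-0. All these values are in the range of the pollen markers, which is far below the threshold. The pollen marker AT59 (AT1G14420), a pectate lyase gene, had a like pattern, with 4.87 and 4.69 in RECA1-OE against 1.55 and 1.99 in Col-0, and the part of the low signal range in these differences was not tested. RECA1-OE lay below in AT3G47400, AT3G05620, AT4G15980, AT2G47280, AT4G33230 and AT3G17060. When dim probe sets were kept in the fit, 0 of the 24 passed limma's test, and the lowest adjusted p was 0.0755, for AT3G05610. In that fit 7.86% of all probe sets were called.

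The groups overlapped in the 16 other dim members. AT5G51500, AT5G20860, AT3G06830, AT2G36710, AT2G26450 and AT5G49180 had means between 4.06 and 5.31. Lower means, between 1.28 and 3.56, were those of AT5G51490, AT2G36700, AT5G18990, AT4G02300 (PME39), AT5G27870, AT5G04970, AT3G60730, AT4G02320 and AT1G11590. AT3G27980 was at or below the floor, a linear signal of 1, on all 4 arrays.

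**Figure D4:**
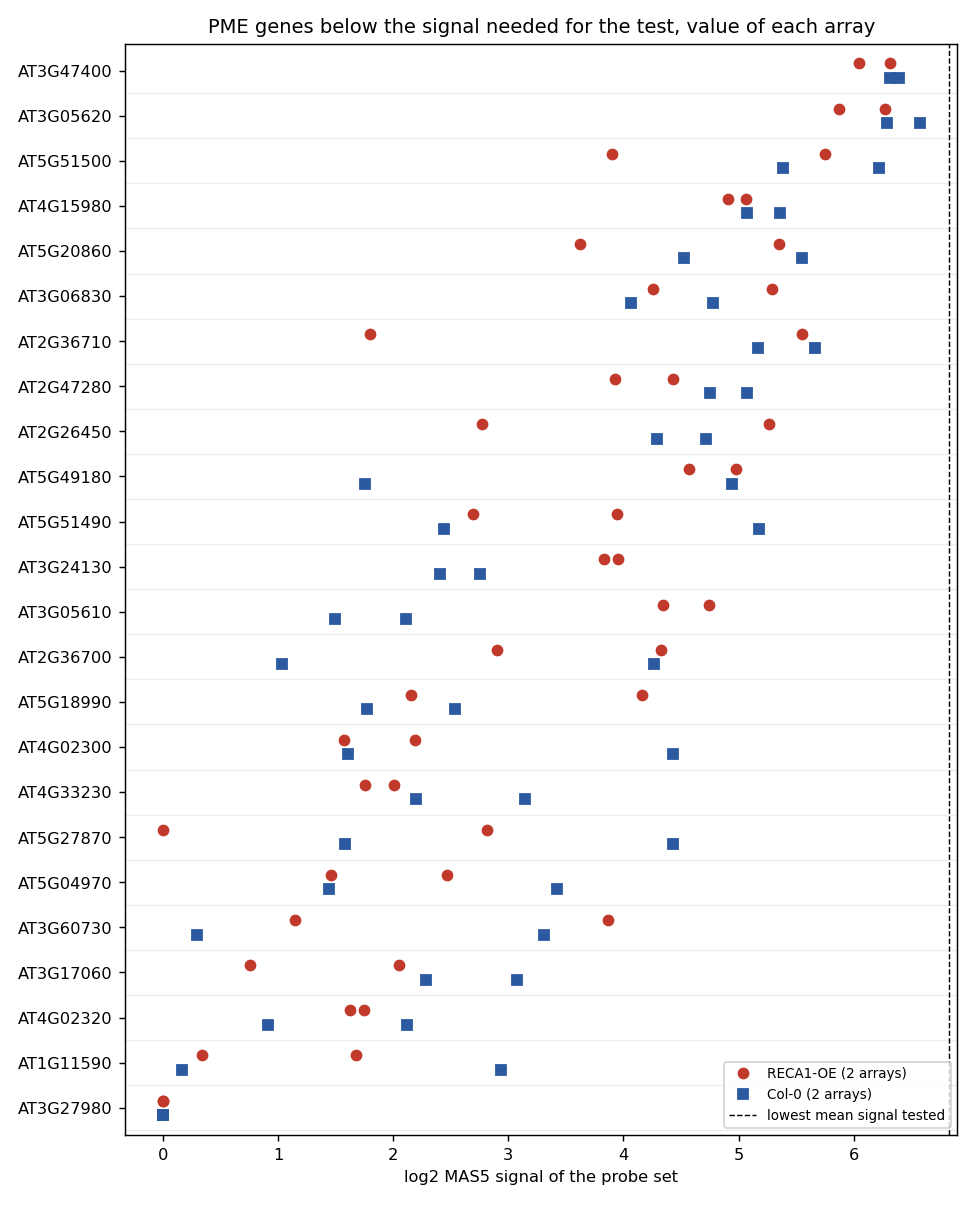
Log2 MAS5 signal of each array for the 24 dim PME genes, with RECA1-OE as circles above Col-0 as squares, ordered by mean signal. Replicate arrays often lie more than 1 apart, and the dashed line marks the lowest mean signal that was tested.

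No probe set of their own was paired with 18 members in the annotation used, and their levels are not analysed here. They include PME2 and PME3, the pollen genes PPME1, VGD1, VGDH1 and VGDH2, PME5, RHS12, named for its expression in root hairs, QRT1, which acts in the separation of pollen grains, and AT2G45220 (PME17). The others are PMEPCRA, PME1, AT2G26440 (PME12), PME31, PME38, PME44, AT5G26810 and AT5G61680. For 3 of the 18, PPME1, VGD1 and VGDH1, the annotation lists a probe set shared with other genes, which was not used. In gene order 23 of the 58 members stand directly beside another member or 1 gene apart, in 12 pairs. Both genes of a pair had a probe set in 6 of these pairs, and in none of the 6 were both bright enough to be tested.

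Other genes of pectin were taken from lists by locus, chosen with earlier results of these data known. No set test was run, and the shares set beside all tested probe sets are descriptions. Genes for inhibitor proteins outside the members were lower wherever called. Of 28 listed, 22 had a probe set and 9 were tested, of which 4 fell, 0 rose and 5 did not pass. The 4 are 44.4% of those tested, beside 9.97% of all tested probe sets. AT2G01610 had log2 signals of 7.03 and 6.77 in RECA1-OE, against 8.52 and 8.59 in Col-0. It fell by 1.65 ± 0.19 log2 units (SE) at a limma adjusted p of 0.00241, and kept its call without each array in turn. AT5G20740, AT1G62770 and AT1G14890 fell by 0.84 ± 0.21, 0.68 ± 0.17 and 0.62 ± 0.16. The median log2 change of the 9 was -0.68. AT2G01610 was the only one of the 9 called lower when either RECA1-OE array or Col-0 replicate 2 was left out, and the only one of 22 in the fit that kept dim probe sets.

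Pectate lyases and polygalacturonases cut the pectin chain once it has lost methyl esters. All 10 tested pectate lyase genes had RECA1-OE values below either Col-0 value, a pattern found in 35.1% of all tested probe sets. Of the 10, 5 fell, 0 rose and 5 did not pass, which is 50% called lower beside 9.97% of all tested probe sets, and the median log2 change was -0.73. AT4G24780 had log2 signals of 10.90 and 10.29 in RECA1-OE, against 11.98 and 12.17 in Col-0, and fell by 1.48 ± 0.21 (SE), with a limma adjusted p of 0.00506. AT1G67750, AT3G53190 and AT3G09540 fell by 1.45 ± 0.27, 0.96 ± 0.22 and 0.88 ± 0.20 on the log2 scale (SE). The 5 falls became 1, that of AT4G24780, without either RECA1-OE array, where 5.47% (replicate 1 left out) and 8.18% (replicate 2 left out) of all tested probe sets were called in either direction. They became 3 of 22 in the fit that kept dim probe sets, where 7.86% of all probe sets were called.

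Of 13 tested polygalacturonase genes, 4 fell, 0 rose and 9 did not pass, with a median log2 change of -0.33. The 4 are 30.8% of those tested, beside 9.97% of all tested probe sets. AT1G10640 had log2 signals of 7.64 and 7.35 in RECA1-OE, against 9.21 and 9.88 in Col-0. AT1G60590 had 7.35 and 7.20 in RECA1-OE, against 9.11 and 9.37 in Col-0. Both lay more than 1 log2 unit lower on each RECA1-OE array than on either Col-0 array, and they fell by 2.05 ± 0.25 and 1.97 ± 0.18 (SE), and the limma adjusted p values were 0.00264 and 0.00127. AT1G48100 and AT3G61490 fell by 1.64 ± 0.27 and 0.99 ± 0.23. Of the 4 falls, that of AT1G48100 was tested only through Col-0, with a RECA1-OE mean of 6.79, so its direction is a description. AT3G61490 lost the call without either RECA1-OE array or Col-0 replicate 2, while AT1G10640 and AT1G60590 kept it without each array in turn. The fits without 1 array kept the same filter, so they cannot check the direction of AT1G48100. Quantile normalization, median centring and the addition of 16 left 0 rises in the pectate lyase, polygalacturonase and inhibitor lists.

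A list of subtilase genes included that of SBT3.5, which is known to act on PME17. Action of the other listed subtilases on PMEs was not tested. SBT3.5 (AT1G32940) had log2 signals of 9.47 and 9.50 in RECA1-OE, against 7.85 and 7.38 in Col-0. It rose by 1.86 ± 0.20 log2 units (SE), or 3.64-fold (limma adjusted p 0.00174), and kept its call without each array in turn. The other 3 tested subtilase genes did not pass, with log2 changes of -0.73 ± 0.25 for ATSBT5.2, -0.27 ± 0.22 for ARA12 and 0.19 ± 0.17 for S1P (SE). ATSBT5.2 passed with Col-0 replicate 1 left out and ARA12 with Col-0 replicate 2 left out. Of 5 tested pectin acetylesterase genes, whose enzymes remove acetyl groups from pectin, AT3G09405 rose by 1.49 ± 0.22 on the log2 scale (SE) and 4 did not pass. That rise is 20% of the 5, and the rise of SBT3.5 is 25% of the 4 tested subtilase genes. Beside these, 9.94% of all tested probe sets were called higher, and each share rests on 1 gene. AT3G09405 was tested only through RECA1-OE, and it did not pass when RECA1-OE replicate 1 was left out, with a limma adjusted p of 0.057. The 2 tested genes of homogalacturonan synthesis, AT3G49720 and GAUT15, differed by 0.19 ± 0.15 and -0.09 ± 0.20, and the wall receptor kinase genes FER and THE1 by 0.27 ± 0.16 and 0.41 ± 0.18 (SE). By limma 0 of these 4 passed, and 0 had an unadjusted p under 0.05.

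**Figure D5:**
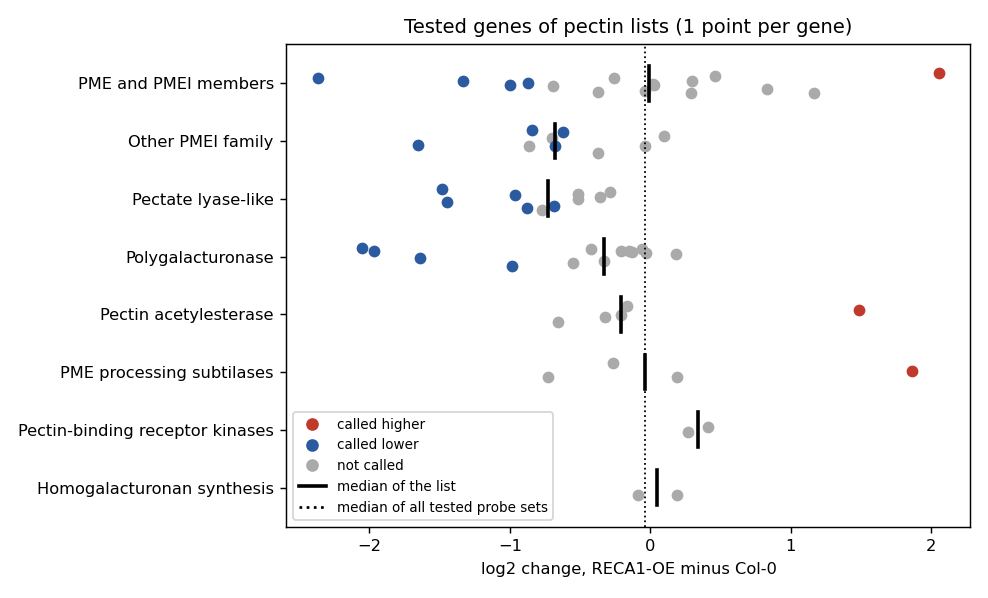
Log2 change, RECA1-OE minus Col-0, of each tested gene in the PME and PMEI members and 7 other pectin lists, with called genes in colour, list medians as thick bars and the median of all tested probe sets as a dotted line. The medians are -0.01 for the members, -0.68 for the other inhibitor genes, -0.73 for the pectate lyase genes and -0.33 for the polygalacturonase genes.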

How the data were processed

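The log2 values of 22746 probe sets on each array are those the authors deposited. The submitters' processing notes name MAS5, with no version. Base and scaling were judged from the numbers themselves, whose linear means, trimmed by 2% at each end, lay between 495.3 and 495.8 on the 4 arrays. The arrays' number limits the precision, and detection calls were not used here.

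Gene names came from the platform annotation. Of 13513 paired with 1 gene, 13436 matched RefSeq TAIR10.1 by Entrez ID. No member had more than 1 probe set. No coordinates are printed, since no build is given with the values. Linear signals below 1 were set to 1. The 9099 probe sets in the lowest 40% of mean log2 signal were left out, which left 13647.

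RECA1-OE was compared with Col-0 by limma 3.58.1 in R 4.3.3, with lmFit, eBayes and a mean-variance trend, two-sided, Benjamini-Hochberg adjusted over all tested probe sets, with 2 residual and 5.42 prior degrees of freedom. The p-values measure only the spread between these samples, which may be technical. The step was also run on simulated data with normal noise, which does not show how reliable the calls are in these data. Members and lists were chosen with earlier results of these data known, and list membership came from general knowledge of the gene families by locus. All members with a probe set were named. Values per array were given for those called, the 3 next by size and the 5 brightest, and also for AT3G43270 and AT3G59010, chosen after their values were seen, with up to 4 genes per list, by size among those called and then by p. Neighbouring genes and the dim genes with values were chosen after the values were seen. Alternatives were other scaling, filters, offset, variance model, thresholds, the replicate block and leaving out each array.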

Additional observations from a re-analysis of the deposited data

How the results depend on the processing

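With 2 arrays in a group, calls rest on few degrees of freedom, and fits without 1 array leave a lone sample that is assumed to vary like the other group. Of the 5 called members, AT4G02330 and AT5G62340 kept the call under every alternative that tested them. AT5G62340 was tested only through its Col-0 signal, so its direction is a description. The fits without 1 array kept the filter drawn from all 4 arrays. Members called higher, 1 in all, became 2 with 16 added before log2, with median centring, at an adjusted p under 0.1 and with the lowest 60% left out (2 of 6 tested), in each case by the addition of PMEPCRF. They ranged from 1 to 4 without 1 array each. Without Col-0 replicate 1, AT2G43050, AT3G10720 and PMEPCRF were added, of which AT2G43050 was tested only through RECA1-OE. The 4 called lower became 1 of 6 tested with the lowest 60% left out and 2 of 40 with dim probe sets kept, and ranged from 1 to 4 without 1 array each. The whole table's 2716 calls became 1787 with dim probe sets kept, and ranged from 746 to 3906 without 1 array each. The 4 other inhibitor genes called lower became 1 of 4 with the lowest 60% left out and 1 of 22 with dim probe sets kept, and 1 to 4 without 1 array each. The 5 pectate lyase genes became 3 with dim probe sets kept and 8 at an adjusted p under 0.1, and 1 to 6 without 1 array each. The 4 polygalacturonase genes became 1 of 5 with the lowest 60% left out, and 3 to 5 without 1 array each. Fewer genes were tested with the lowest 60% left out, and otherwise the cause was not tested. Whole-table calls in either direction were 2103 of 9098 (lowest 60% left out) and 7.86% (dim kept). Of 13647, 2745 (16 added), 2620 (median centring) and 3999 (adjusted p under 0.1) passed.

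Signs turned only in genes not called with all 4 arrays. After quantile normalization AT3G43270 and AT3G62820 had log2 changes of -0.0074 and -0.0039. Leaving out 1 array gave log2 changes from -0.13 to 0.161 for AT3G43270, -0.11 to 0.163 for AT3G62820, -0.174 to 0.0931 for AT3G59010, -0.679 to 0.17 for AT5G64640, -0.176 to 0.0019 for GAUT15 (AT3G58790) and -0.59 to 0.0539 for ARA12 (AT5G67360). Of these, ARA12 was called at -0.59, without Col-0 replicate 2. Of 166 recomputed member values 141 kept their direction and side of the threshold. The labels do not say whether the replicate numbers pair the samples. Deviations of same-numbered arrays from their group means had a correlation of -0.06 across tested probe sets. That value cannot show whether same-numbered samples were grown or handled together. With the replicate number as a block, 1 member was higher and 4 lower, and the whole table had 2390 calls. The block added a call for ATSBT5.2 (AT1G20160, limma adjusted p 0.0322) and changed no other call among the genes named. No member had several probe sets, so the alternative of another probe set gave no value.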
